A study of Mus musculus with 10 samples.

Results

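The genes described here encode the nuclear subunits of the mitochondrial respiratory chain and the ATP synthase, in RNA sequencing of mouse lung tissue. They were chosen by gene symbol: Nduf followed by a, b, c, s or v and a number, Ndufab1, Sdha to Sdhd, and names that begin with Uqcr, Cox4 to Cox8 or Atp5. The rule matched 98 genes, 8 of which carried a -ps name and were left out, so that 90 of the 54532 genes in the table remained. They hold 89 symbols, because Atp5o is listed under 2 identifiers. Complex I has 39 of them, complex II has 4, complex III has 8, complex IV has 21 and ATP synthase, complex V, has 18. Enough reads for a test were found for 84 genes. The 6 that could not be tested were Ndufa11b, Ndufs6b, Cox6c2, Cox7b2, Cox8c and the second Atp5o entry, and Ndufa11b, Ndufs6b, Cox6c2 and the tested Ndufb4c are annotated pseudogenes.

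The study asked how lung gene expression responds to lipopolysaccharide (LPS), with and without pretreatment with recombinant TSLP. LPS is a component of the bacterial outer membrane that activates innate immunity through TLR4, and TSLP (thymic stromal lymphopoietin) is a cytokine made by epithelial cells. The LPS+TSLP group held 4 libraries from lungs of wild-type mice given recombinant TSLP and then LPS, the LPS group held 3 libraries from wild-type lungs given LPS alone, and the Vehicle group held 3 libraries from wild-type lungs given vehicle. Doses, times, strain, age and sex are not given in the sources used here. Nor do the labels state that each library is a different mouse, so p-values measure the spread between these libraries, which may be technical.

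Complexes I to IV pass electrons from NADH and succinate to oxygen. Complexes I, III and IV, but not complex II, pump protons across the inner mitochondrial membrane, and ATP synthase uses the proton gradient to make ATP. Except in complex II, a few core subunits are encoded by mitochondrial DNA and are translated inside the organelle, whereas most subunits are encoded in the nucleus, translated in the cytosol and imported. The nuclear genes range from large catalytic or electron-carrying proteins to many very small accessory proteins that clamp, anchor or seal the complexes, and some complex IV subunits have isoforms used in heart, skeletal muscle, testis or in low oxygen.

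Total counts ran between 16175172 and 18374461 per library. LPS replicate 1 stood apart: it had 206 CPM of Xist (CPM is the count scaled to library size), where the other 9 libraries had at most 0.452 CPM, and no read of the Y-linked gene Ddx3y. Ddx3y also separated the other libraries, at 59.7 to 94.8 CPM in LPS+TSLP libraries, 70.1 and 89.6 CPM in LPS replicates 2 and 3 and 6.03 to 11.4 CPM in the Vehicle libraries. What this difference comes from, and its part in the results, was not tested. LPS+TSLP replicate 1 also stood apart, since mitochondrially encoded genes took 13.1% of its counts, against 2.0% to 6.5% in the other LPS+TSLP libraries, 1.20% to 2.58% in the LPS libraries and 1.11% to 1.27% in the Vehicle libraries. Markers of alveolar type 2 cells, a lung epithelial cell type, were present in each library. They summed to 6048 CPM in LPS+TSLP replicate 1 and to 22640 to 30890 CPM in the other LPS+TSLP libraries. The sums were 12430 to 22600 CPM in LPS lungs and 22120 to 34580 CPM in Vehicle lungs. In LPS+TSLP replicate 1, ciliated cell markers summed to 622 CPM, against 100 to 170 CPM in the other LPS+TSLP libraries. Lung endothelium markers summed to 2451 CPM there, against 3846 to 5602 CPM in the others.

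Promoters of 69 of the 89 symbols were matched in the RefSeq table for build GRCm38.p6, and these 74 promoters, each 250 bases before to 50 bases after the start, were searched on both strands for sequences known to bind regulators of mitochondrial genes. The ETS sequence CCGGAAG, bound by the GABP factor, was in 16 of the 74 promoters (21.6%), against 8.86% of all 32851 promoters. The palindromic NRF1 motif was in 5 (6.76%, against 0.971%). The YY1 core AAGATGG was in 11 (14.9%, against 6.34%), and the longer YY1 motif, which contains the core, was in 4 (5.41%, against 0.633%). The ERR sequence AAGGTCA was in 8 (10.8%, against 4.72%). The stretches below run from 150 bases before to 30 bases after the start, 5′ to 3′ on the gene's strand, with the matches in capitals. The first 4 are from genes whose counts rose after LPS whichever single library was left out, and the last 2 from large catalytic subunits that were not called. The stretches are examples and do not stand for either set. Cox5b, which also rose whichever library was left out, holds none of the 5 motifs in the window searched. Among the uncalled genes, the Sdhb and Sdhd promoters hold ETS letters and that of Uqcrc1 holds the NRF1 motif. Atp5k at chr5:108434370-108434549 (minus strand) holds the NRF1, ETS and ERR letters, Ndufa3 at chr7:3617223-3617402 (plus strand) and Cox7c at chr13:86046766-86046945 (minus strand) hold the YY1 core, and Cox7b at chrX:106015550-106015729 (plus strand), Sdha at chr13:74350211-74350390 (minus strand) and Atp5b at chr10:128083157-128083336 (plus strand) hold none of the 5 motifs.
Atp5k: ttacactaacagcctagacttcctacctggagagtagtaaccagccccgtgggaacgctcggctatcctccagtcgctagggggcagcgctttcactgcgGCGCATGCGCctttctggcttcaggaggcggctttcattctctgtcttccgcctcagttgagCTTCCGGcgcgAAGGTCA
Ndufa3: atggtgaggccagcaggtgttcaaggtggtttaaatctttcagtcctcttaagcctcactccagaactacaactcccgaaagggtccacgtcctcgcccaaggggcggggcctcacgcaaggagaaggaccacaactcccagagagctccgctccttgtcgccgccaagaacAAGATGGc
Cox7c: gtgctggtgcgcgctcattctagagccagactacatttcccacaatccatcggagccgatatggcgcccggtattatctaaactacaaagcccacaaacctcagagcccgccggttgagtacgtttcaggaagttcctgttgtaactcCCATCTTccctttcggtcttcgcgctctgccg
Cox7b: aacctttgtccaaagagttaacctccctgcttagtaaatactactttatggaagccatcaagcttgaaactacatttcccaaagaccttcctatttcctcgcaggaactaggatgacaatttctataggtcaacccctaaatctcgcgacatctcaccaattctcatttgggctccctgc
Sdha: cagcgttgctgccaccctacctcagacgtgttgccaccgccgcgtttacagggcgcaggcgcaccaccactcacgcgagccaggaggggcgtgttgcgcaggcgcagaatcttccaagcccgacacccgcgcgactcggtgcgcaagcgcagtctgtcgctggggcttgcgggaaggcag
Atp5b: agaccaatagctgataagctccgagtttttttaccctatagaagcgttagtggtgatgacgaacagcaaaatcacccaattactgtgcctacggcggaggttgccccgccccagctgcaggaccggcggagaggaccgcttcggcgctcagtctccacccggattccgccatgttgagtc
ETS letters stood in 12 of the 40 promoters of genes called higher after LPS (30%) and in 4 of the 33 promoters of tested genes that were not called (12.1%). The same split was 20% and 9.09% for the YY1 core, 12.5% and 9.09% for ERR, 7.5% and 6.06% for NRF1, and 5.0% and 6.06% for the longer YY1 motif. A match is a description of the letters in this window and was not tested as a binding site.

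LPS lungs carried more mRNA of the small subunits of complexes I, III, IV and V than Vehicle lungs did, while most of the large catalytic and core subunits were not called. Of the 84 tested genes, 43 (51.2%) were higher in LPS lungs and none was lower at an adjusted p under 0.05 (edgeR quasi-likelihood test, Benjamini-Hochberg over 17139 genes), whereas 14.2% of all tested genes were called higher and 10.7% lower. The median log2 fold change over the 84 genes was 0.88, against 0.01 over all tested genes, and 78 were above zero and 6 below. At an unadjusted p under 0.05, 57 were higher and none lower, against 21% and 18.6% of all tested genes. The DESeq2 Wald test called 47 of the 84 higher and limma-voom 39, and neither called any lower. For 52 of the 84 genes the lowest LPS library exceeded the highest Vehicle library, as it did for 24.7% of all tested genes. In tissue RNA, a change in how many cells of a type are present and a change in RNA per cell cannot be told apart.

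The size of the increase differed between the LPS libraries. Summed over the 90 genes, the level was 12810, 8413 and 6971 CPM in LPS replicates 1 to 3, against 5880, 6135 and 5613 CPM in Vehicle replicates 1 to 3. Each LPS library lay above each Vehicle library, and LPS replicate 1 was the highest LPS library for 75 of the 84 genes and LPS replicate 3 the lowest for 69. The median gene was 1.33, 0.76 and 0.35 above the Vehicle mean in LPS replicates 1 to 3 on the log2 scale. Without LPS replicate 1, which was also the library with Xist reads, 13 genes were called higher and 73 of 84 fold changes stayed above zero, and 32 were called when LPS+TSLP replicate 1 was left out too. The count was 13 without Vehicle replicate 1, 11 without Vehicle replicate 2, 25 without Vehicle replicate 3 and 54 without LPS replicate 3. The genes called in each of the 10 fits that left out 1 library were 9: Atp5k, Atp5mpl, Cox5b, Cox6c, Cox7b, Cox7c, Ndufa3, Ndufb9 and Uqcrb. Of the 43 called genes, 20 share stretches with another annotated gene or overlap another gene's exons: 11 have at least 20% of their 50-base stretches in another gene and 13 have such an exon overlap, and whether counting used the strand is not given in the sources used here.

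**Figure D1:**
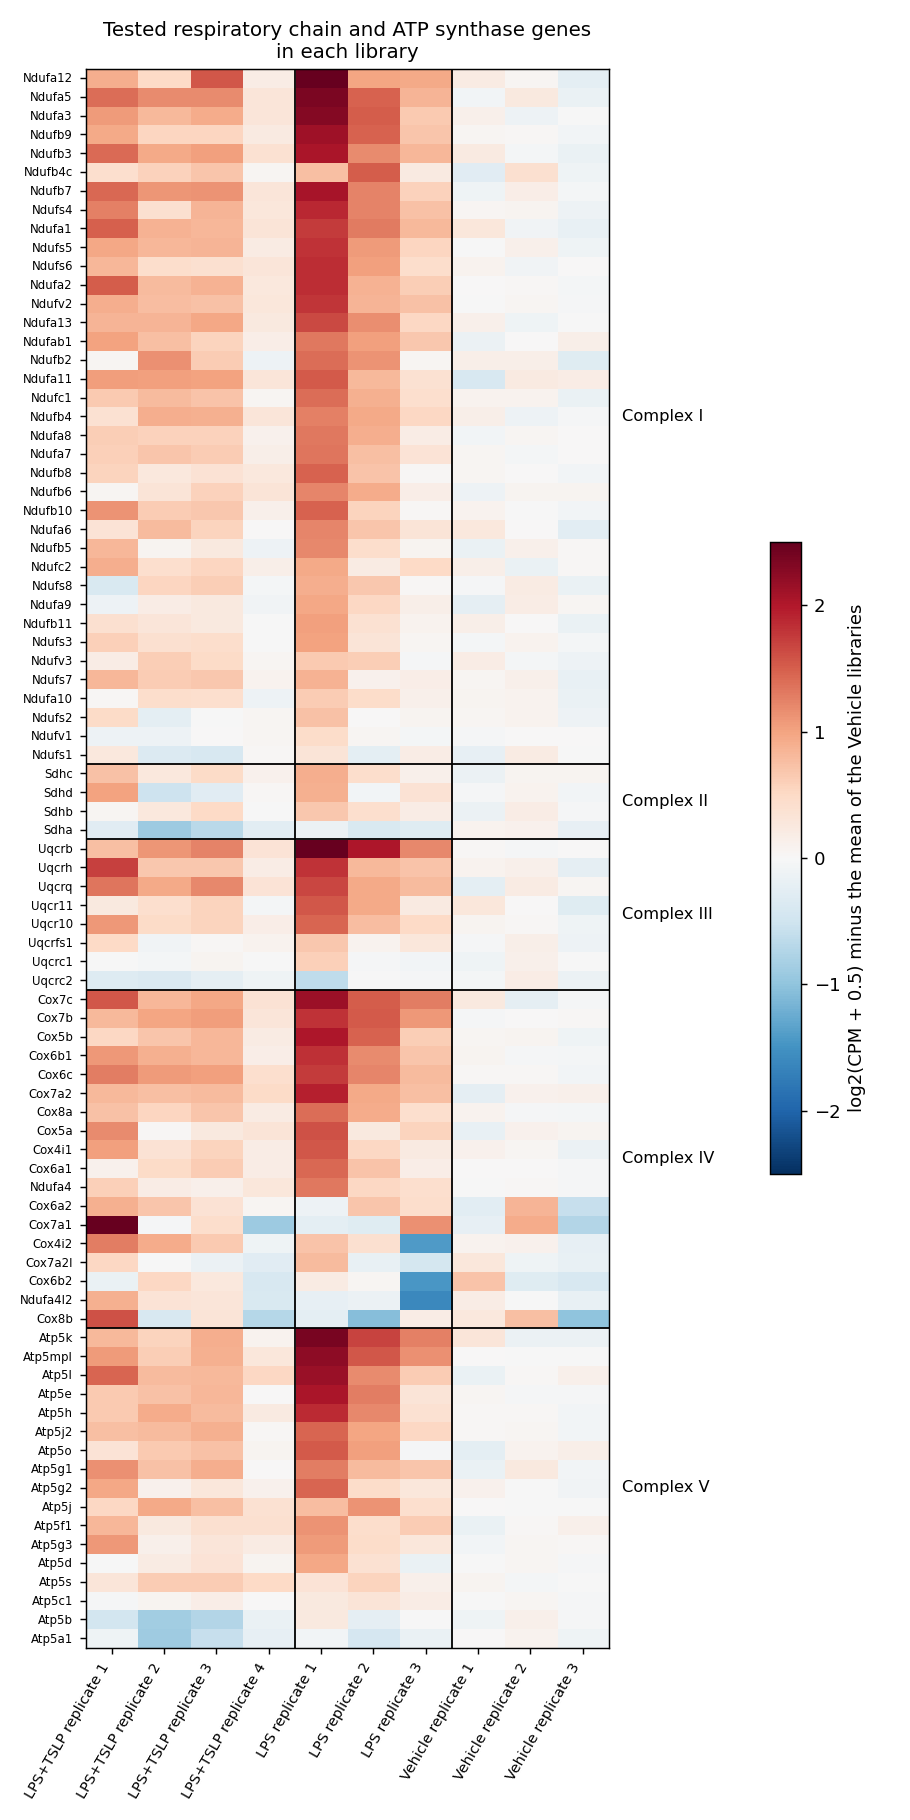
Each row is 1 of the 84 tested genes, grouped by complex and ordered by fitted fold change, and each column is 1 library; colour gives log2(CPM + 0.5) minus the mean of the Vehicle libraries. LPS replicate 1 is the darkest column, the bottom genes of each complex stay near white or turn blue, and LPS+TSLP replicate 4 is the palest of the LPS+TSLP columns.

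Complex I oxidises NADH, and its 37 tested genes included 20 that were higher in LPS lungs (median log2 fold change 0.94). By role, 13 of 20 tested accessory subunits of the membrane arm (median 0.97) and 6 of 9 of the matrix arm (median 1.22) were called, against 1 of the 7 core subunits of the matrix arm that carry the electrons (median 0.42). Ndufb9, a membrane-arm accessory subunit, had 37.7, 28.5, 28.6 and 22.8 CPM in LPS+TSLP lungs, 85.9, 54.6 and 31.5 CPM in LPS lungs and 20.2, 19.8 and 18.4 CPM in Vehicle lungs. It was called with a log2 fold change of 1.56 ± 0.32 (SE) and an adjusted p of 0.00778, and the 3 LPS libraries spread widely but lay above each Vehicle library. Ndufa3, a small single-span membrane-arm subunit, had 69.0, 57.4, 62.1 and 40.6 CPM in LPS+TSLP lungs, 163, 93.8 and 51.6 CPM in LPS lungs and 35.8, 29.8 and 32.5 CPM in Vehicle lungs. It rose with a log2 fold change of 1.65 ± 0.35 (SE) and an adjusted p of 0.00936. Ndufa5, an accessory subunit of the matrix arm, had 58.7, 50.9, 51.1 and 27.3 CPM in LPS+TSLP lungs, 114, 62.1 and 40.4 CPM in LPS lungs and 21.1, 26.3 and 19.6 CPM in Vehicle lungs. Its LPS and Vehicle libraries did not overlap. For Ndufa5, LPS against Vehicle lungs gave a log2 fold change of 1.70 ± 0.37 (SE) and an adjusted p of 0.0103. Without Vehicle replicate 1 its adjusted p was 0.0503. Ndufa12, a matrix-arm accessory subunit, had the highest fold change of the complex. Its levels were 19.3, 14.3, 30.4 and 11.4 CPM in LPS+TSLP lungs, 63.3, 20.4 and 19.7 CPM in LPS lungs and 11.6, 10.3 and 8.41 CPM in Vehicle lungs. For Ndufa12, LPS against Vehicle lungs gave a log2 fold change of 1.77 ± 0.48 (SE) and an adjusted p of 0.0219. It missed the threshold without LPS replicate 1 (adjusted p = 0.111) and without any 1 of the Vehicle libraries, and 30.6% of its 50-base stretches also occur elsewhere.

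Among the electron-carrying core subunits, Ndufv2, an iron-sulfur protein of the module that takes electrons from NADH, was the one called. Its levels were 101, 92.5, 90.5 and 65.7 CPM in LPS+TSLP lungs, 187, 97.4 and 89.5 CPM in LPS lungs and 53.3, 55.9 and 52.7 CPM in Vehicle lungs. For Ndufv2, LPS against Vehicle lungs gave a log2 fold change of 1.21 ± 0.28 (SE) and an adjusted p of 0.0121. The call was lost without Vehicle replicate 1 (adjusted p = 0.0569), without Vehicle replicate 2 and with the GC trend taken out (adjusted p = 0.0540). Ndufs1, the largest iron-sulfur subunit, had the smallest fold change of the complex. It had 65.4, 43.0, 41.3 and 55.7 CPM in LPS+TSLP lungs, 68.1, 46.2 and 62.1 CPM in LPS lungs and 47.4, 63.3 and 54.2 CPM in Vehicle lungs, so the groups overlapped. For Ndufs1, LPS against Vehicle lungs gave a log2 fold change of 0.10 ± 0.23 (SE) and an adjusted p of 0.783. Per kilobase of transcript, the most abundant complex I genes over the 10 libraries were Ndufa2 and Ndufa7, at 158.5 and 135.8 CPM per kb, both accessory subunits of the matrix arm. Ndufa2 had 147, 89.1, 94.5 and 61.7 CPM in LPS+TSLP lungs, 186, 93.9 and 79.4 CPM in LPS lungs and 51.8, 52.5 and 50.1 CPM in Vehicle lungs. For Ndufa2, LPS against Vehicle lungs gave a log2 fold change of 1.22 ± 0.35 (SE) and an adjusted p of 0.0288. Ndufa7 had 76.1, 81.8, 77.7 and 55.8 CPM in LPS+TSLP lungs, 127, 84.5 and 64.0 CPM in LPS lungs and 51.6, 48.2 and 50.5 CPM in Vehicle lungs. For Ndufa7, LPS against Vehicle lungs gave a log2 fold change of 0.87 ± 0.25 (SE) and an adjusted p of 0.0264. In both genes each LPS library lay above each Vehicle library, and both calls were lost without LPS replicate 1 (adjusted p = 0.148 for Ndufa2 and 0.112 for Ndufa7) or without any 1 of the Vehicle libraries.

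Complex II, succinate dehydrogenase, is the one complex with no subunit encoded by mitochondrial DNA, and none of its 4 genes was called in LPS lungs by edgeR, with 1 gene (Sdhc) at an unadjusted p under 0.05 and none called by the DESeq2 Wald test or limma-voom. Sdha, the flavoprotein that oxidises succinate, had 189, 123, 145 and 193 CPM in LPS+TSLP lungs, 210.3, 177 and 187 CPM in LPS lungs and 247, 249 and 202 CPM in Vehicle lungs. Its fold change was below zero. For Sdha, LPS against Vehicle lungs gave a log2 fold change of -0.28 ± 0.21 (SE) and an adjusted p of 0.348. Sdhb, the iron-sulfur subunit, had 79.3, 92.6, 108 and 76.0 CPM in LPS+TSLP lungs, 122, 103 and 87.0 CPM in LPS lungs and 69.1, 87.2 and 74.7 CPM in Vehicle lungs. For Sdhb, LPS against Vehicle lungs gave a log2 fold change of 0.43 ± 0.20 (SE) and an adjusted p of 0.134. Both catalytic subunits overlapped between LPS and Vehicle lungs. Sdhc, a membrane anchor, had 137, 98.1, 114 and 87.9 CPM in LPS+TSLP lungs, 153, 112 and 89.9 CPM in LPS lungs and 74.2, 85.9 and 85.9 CPM in Vehicle lungs. For Sdhc, LPS against Vehicle lungs gave a log2 fold change of 0.53 ± 0.23 (SE) and an adjusted p of 0.116. Sdhc was the one gene of the complex whose LPS libraries all lay above the Vehicle libraries. Sdhd, the other membrane anchor, had 138, 47.8, 56.3 and 70.0 CPM in LPS+TSLP lungs, 127, 65.6 and 87.7 CPM in LPS lungs and 67.3, 73.0 and 65.1 CPM in Vehicle lungs. For Sdhd, LPS against Vehicle lungs gave a log2 fold change of 0.45 ± 0.37 (SE) and an adjusted p of 0.388. Its levels in LPS+TSLP lungs ran from 47.8 to 138 CPM, a wider range than in the other groups.

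**Figure D2:**
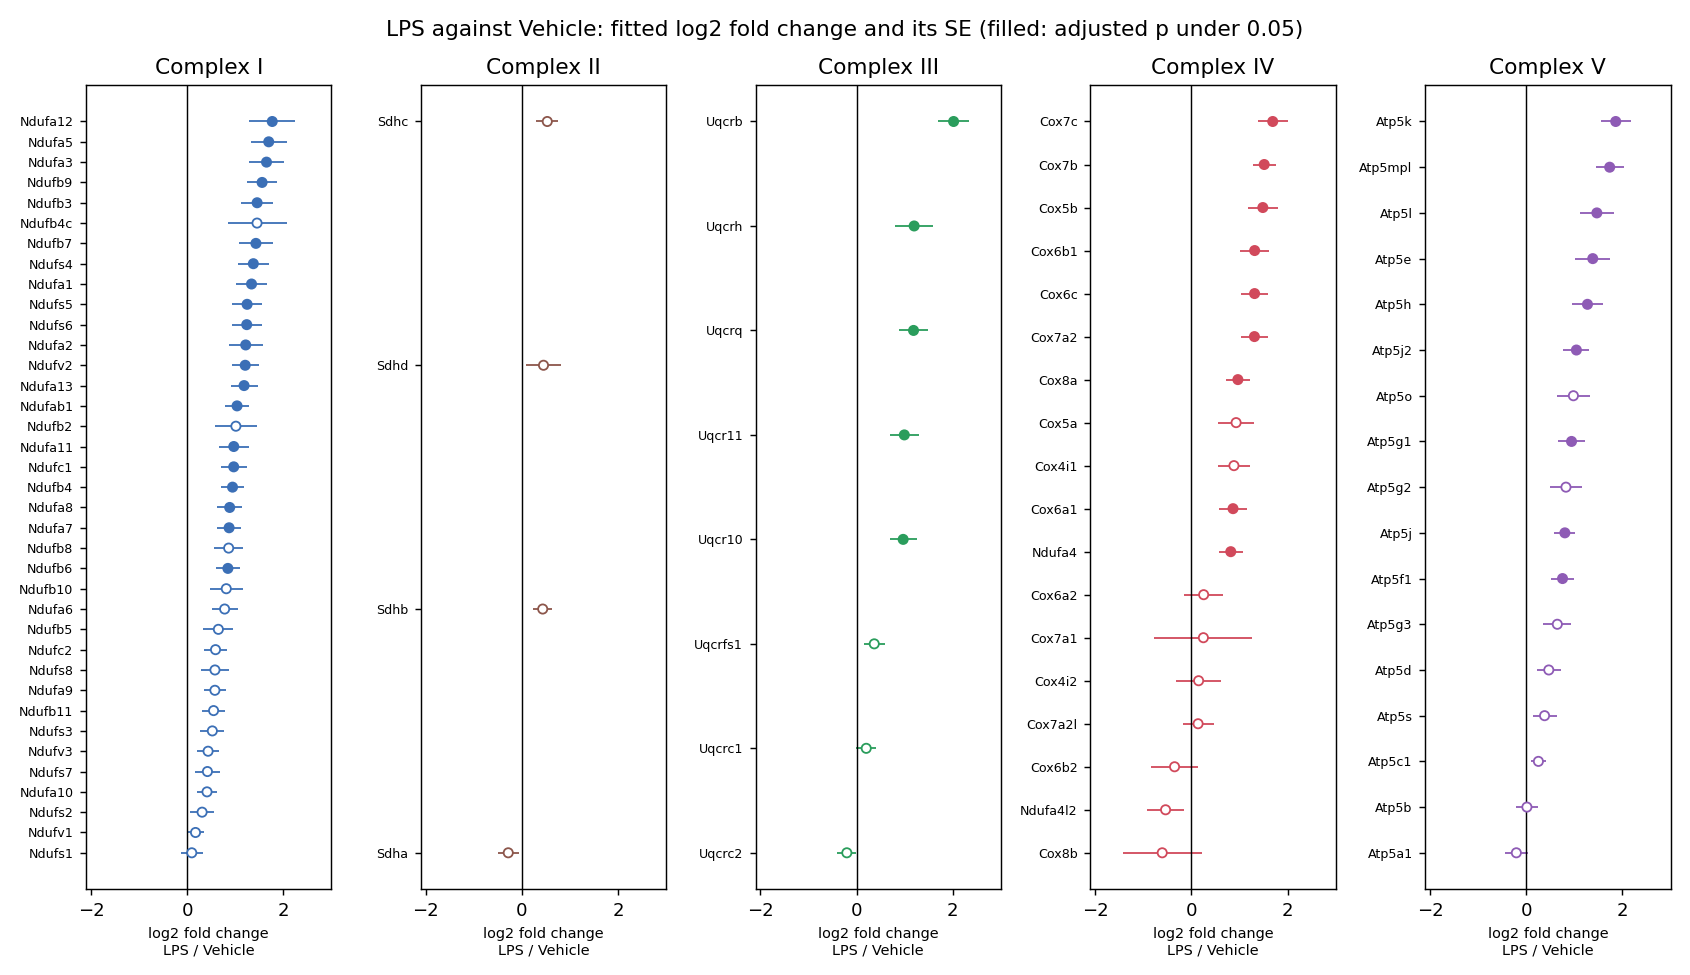
Points give the fitted log2 fold change of LPS against Vehicle and bars its SE for each tested gene, in 1 panel per complex; filled points have an adjusted p under 0.05. In complex III the 5 small subunits are filled and the 3 core subunits are open, in complex II all 4 points are open, and in complex IV the tissue isoforms sit at the bottom with wide bars.

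Complex III passes electrons from ubiquinol to cytochrome c, and its genes can be grouped as small and core subunits: the 5 small subunits were all called higher in LPS lungs (median log2 fold change 1.18), and of the 3 core genes none was called (median 0.20). Uqcrb, a small subunit near the quinone site, had 47.9, 61.5, 67.9 and 36.0 CPM in LPS+TSLP lungs, 161, 117 and 66.1 CPM in LPS lungs and 29.1, 27.6 and 28.3 CPM in Vehicle lungs. Its fold change was the largest of the 84 genes. For Uqcrb, LPS against Vehicle lungs gave a log2 fold change of 2.02 ± 0.32 (SE) and an adjusted p of 0.00316. With the GC trend taken out its log2 fold change was 1.06 with an adjusted p of 0.0507, below Atp5k at 2.15 and Ndufa12 at 2.05. Of its 50-base stretches, 31.0% also occur in another annotated gene. Uqcrq, another small membrane subunit, had 165, 126, 151 and 83.2 CPM in LPS+TSLP lungs, 209, 127 and 114 CPM in LPS lungs and 54.9, 75.1 and 67.9 CPM in Vehicle lungs. For Uqcrq, LPS against Vehicle lungs gave a log2 fold change of 1.18 ± 0.30 (SE) and an adjusted p of 0.0167. Uqcr10 had 99.2, 64.5, 68.6 and 51.6 CPM in LPS+TSLP lungs, 127, 79.3 and 65.0 CPM in LPS lungs and 48.6, 47.2 and 43.0 CPM in Vehicle lungs. For Uqcr10, LPS against Vehicle lungs gave a log2 fold change of 0.97 ± 0.28 (SE) and an adjusted p of 0.0304. Uqcrh, the hinge protein beside the cytochrome c docking site, was the most abundant gene of the complex per length, at 201 CPM per kb, ahead of Uqcr10 at 159.9. Its levels were 207, 100.3, 99.7 and 71.6 CPM in LPS+TSLP lungs, 219, 111 and 103 CPM in LPS lungs and 66.9, 68.5 and 53.8 CPM in Vehicle lungs. For Uqcrh, LPS against Vehicle lungs gave a log2 fold change of 1.20 ± 0.39 (SE) and an adjusted p of 0.0455. Uqcr11 was the one called gene whose groups overlapped, with 48.2, 54.7, 60.1 and 39.5 CPM in LPS+TSLP lungs, 120.1, 79.0 and 47.9 CPM in LPS lungs and 50.1, 41.2 and 32.9 CPM in Vehicle lungs. For Uqcr11, LPS against Vehicle lungs gave a log2 fold change of 0.99 ± 0.31 (SE) and an adjusted p of 0.0375. The calls of these last 4 genes were lost without LPS replicate 1, at adjusted p values of 0.0773 for Uqcrq, 0.148 for Uqcr10, 0.220 for Uqcrh and 0.165 for Uqcr11, and also without Vehicle replicate 1 or Vehicle replicate 2. All but Uqcrq were lost without Vehicle replicate 3 as well, Uqcrh and Uqcr11 also without LPS replicate 2, and Uqcrh also without LPS+TSLP replicate 2 or 3.

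None of the core genes of complex III was called. Uqcrc1, which forms the matrix base of the complex, had 148, 143, 154 and 146 CPM in LPS+TSLP lungs, 224, 146 and 140.1 CPM in LPS lungs and 136, 162 and 146 CPM in Vehicle lungs. LPS replicate 1 was above the Vehicle range and the other 2 LPS libraries were within it. For Uqcrc1, LPS against Vehicle lungs gave a log2 fold change of 0.20 ± 0.21 (SE) and an adjusted p of 0.499. Uqcrc2, its partner, had 67.3, 65.6, 72.0 and 78.4 CPM in LPS+TSLP lungs, 54.5, 84.0 and 82.6 CPM in LPS lungs and 82.1, 96.3 and 76.4 CPM in Vehicle lungs. Here LPS replicate 1 was the lowest of the 10 libraries, and the fold change was below zero. For Uqcrc2, LPS against Vehicle lungs gave a log2 fold change of -0.20 ± 0.20 (SE) and an adjusted p of 0.474. Uqcrfs1, the Rieske iron-sulfur protein, overlapped between groups. For Uqcrfs1, LPS against Vehicle lungs gave a log2 fold change of 0.37 ± 0.21 (SE) and an adjusted p of 0.227.

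Complex IV, cytochrome c oxidase, reduces oxygen. For all 11 of its ubiquitous nuclear subunits each LPS library lay above each Vehicle library, 9 were called, and the median log2 fold change was 1.31. Cox7b had 60.6, 68.8, 72.2 and 42.6 CPM in LPS+TSLP lungs, 122, 101 and 74.0 CPM in LPS lungs and 33.8, 34.7 and 35.2 CPM in Vehicle lungs. This gave a log2 fold change of 1.51 ± 0.24 (SE) and an adjusted p of 0.00316, the smallest adjusted p of the 84 genes, and the Vehicle libraries differed by less than 2 CPM. Cox7c had 147, 90.2, 98.7 and 64.9 CPM in LPS+TSLP lungs, 223, 145 and 122 CPM in LPS lungs and 59.7, 43.1 and 49.2 CPM in Vehicle lungs. For Cox7c, LPS against Vehicle lungs gave a log2 fold change of 1.69 ± 0.31 (SE) and an adjusted p of 0.00555. Of its 50-base stretches, 38.1% are shared with other genes. Cox5b, which binds zinc, had 73.6, 82.2, 91.5 and 58.8 CPM in LPS+TSLP lungs, 207, 143 and 77.9 CPM in LPS lungs and 52.7, 53.2 and 47.1 CPM in Vehicle lungs. For Cox5b, LPS against Vehicle lungs gave a log2 fold change of 1.48 ± 0.31 (SE) and an adjusted p of 0.00825. Cox6c had 171, 148, 143 and 93.8 CPM in LPS+TSLP lungs, 237, 165 and 122 CPM in LPS lungs and 72.1, 72.2 and 67.0 CPM in Vehicle lungs. For Cox6c, LPS against Vehicle lungs gave a log2 fold change of 1.31 ± 0.27 (SE) and an adjusted p of 0.00836. In these 4 small subunits the order of the LPS libraries was the same, with replicate 1 highest and replicate 3 lowest, and their calls held with any single library left out.

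Cox6b1, which faces the intermembrane space, had 150.1, 131, 126 and 79.6 CPM in LPS+TSLP lungs, 251, 160.1 and 115 CPM in LPS lungs and 73.9, 69.4 and 68.4 CPM in Vehicle lungs. For Cox6b1, LPS against Vehicle lungs gave a log2 fold change of 1.31 ± 0.30 (SE) and an adjusted p of 0.0112. It missed the threshold without Vehicle replicate 2 (adjusted p = 0.0534). Cox7a2 had 82.5, 79.4, 80.8 and 65.0 CPM in LPS+TSLP lungs, 181, 90.7 and 78.6 CPM in LPS lungs and 39.9, 50.3 and 51.0 CPM in Vehicle lungs. For Cox7a2, LPS against Vehicle lungs gave a log2 fold change of 1.31 ± 0.29 (SE) and an adjusted p of 0.0103. It missed the threshold without Vehicle replicate 1 (adjusted p = 0.0556). Cox8a, among the most abundant genes per length at 332 CPM per kb, had 207, 179.5, 201 and 144 CPM in LPS+TSLP lungs, 325, 235 and 167 CPM in LPS lungs and 132, 121 and 119 CPM in Vehicle lungs. For Cox8a, LPS against Vehicle lungs gave a log2 fold change of 0.97 ± 0.25 (SE) and an adjusted p of 0.0181. Without Vehicle replicate 2 its adjusted p was 0.0813, and it was also not called without Vehicle replicate 1, Vehicle replicate 3 or LPS replicate 1. Ndufa4, once counted to complex I and now placed in complex IV, had 109.6, 82.6, 79.0 and 88.4 CPM in LPS+TSLP lungs, 182, 104 and 96.7 CPM in LPS lungs and 72.0, 74.2 and 70.9 CPM in Vehicle lungs. For Ndufa4, LPS against Vehicle lungs gave a log2 fold change of 0.82 ± 0.24 (SE) and an adjusted p of 0.0327. Its call was lost without LPS replicate 1 (adjusted p = 0.127), without any 1 of the Vehicle libraries and after each library's GC trend was taken out (adjusted p = 0.559). Cox6a1 was the most abundant gene per length, at 431 CPM per kb, and had 194, 253, 281 and 206 CPM in LPS+TSLP lungs, 488, 297 and 203 CPM in LPS lungs and 183, 181 and 178 CPM in Vehicle lungs. It was just inside the threshold. For Cox6a1, LPS against Vehicle lungs gave a log2 fold change of 0.86 ± 0.29 (SE) and an adjusted p of 0.0498. In all, 8 of the 10 fits that left out 1 library did not call it, with adjusted p up to 0.199 without LPS replicate 1. Cox4i1, the largest nuclear subunit, followed at 374 CPM per kb and had 402, 253, 289.6 and 224 CPM in LPS+TSLP lungs, 580.1, 284 and 231 CPM in LPS lungs and 212, 203 and 179 CPM in Vehicle lungs. Each LPS library lay above each Vehicle library, but LPS replicate 1 was far above the rest and the gene was not called. For Cox4i1, LPS against Vehicle lungs gave a log2 fold change of 0.88 ± 0.34 (SE) and an adjusted p of 0.0751.

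**Figure D3:**
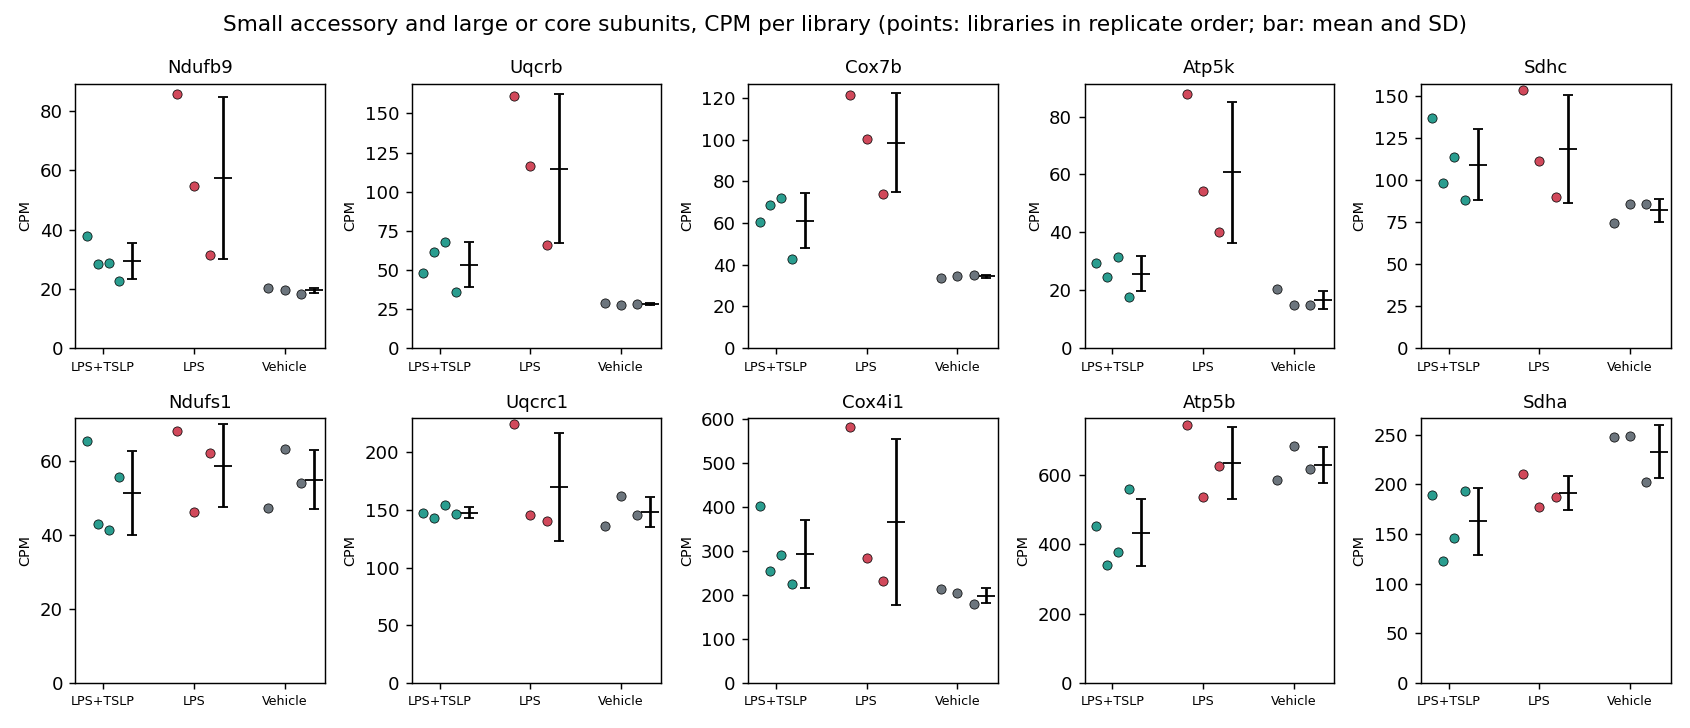
CPM of 10 genes in each library, with LPS+TSLP, LPS and Vehicle from left to right; points are libraries in replicate order and bars give the mean and SD. In the small subunits Ndufb9, Uqcrb, Cox7b, Atp5k and Sdhc each LPS point lies above each Vehicle point, in Cox4i1 they also do, and in Ndufs1, Uqcrc1, Atp5b and Sdha the ranges overlap.

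Complex IV also has isoforms that replace a ubiquitous subunit in particular tissues or conditions. Of 8 such genes 6 could be tested, none was called in any comparison by edgeR, DESeq2 or limma-voom (at an unadjusted p under 0.05, 1 was higher in LPS+TSLP than in LPS lungs and none differed between LPS and Vehicle lungs), and the median log2 fold change of LPS against Vehicle was -0.10, against 1.31 for the ubiquitous subunits. Cox4i2, the Cox4 isoform known from lung and from low oxygen, had 107, 83.3, 68.6 and 40.7 CPM in LPS+TSLP lungs, 72.0, 57.8 and 16.1 CPM in LPS lungs and 46.2, 47.3 and 38.0 CPM in Vehicle lungs. For Cox4i2, LPS against Vehicle lungs gave a log2 fold change of 0.15 ± 0.46 (SE) and an adjusted p of 0.837. LPS replicate 3 was the lowest of the 10 libraries and LPS+TSLP replicate 1 the highest. Ndufa4l2, a Ndufa4 relative induced by hypoxia-inducible factor, had 59.8, 40.7, 39.6 and 24.3 CPM in LPS+TSLP lungs, 27.4, 28.7 and 10.1 CPM in LPS lungs and 36.1, 31.9 and 28.1 CPM in Vehicle lungs. For Ndufa4l2, LPS against Vehicle lungs gave a log2 fold change of -0.54 ± 0.38 (SE) and an adjusted p of 0.320. LPS replicate 3 was again the lowest, and against LPS lungs the log2 fold change in LPS+TSLP lungs was 0.90 ± 0.37 (SE) with an adjusted p of 0.599. Ndufa4l2 shares exon positions with Shmt2 on the other strand. Cox4i2 and Ndufa4l2 also serve as pericyte markers, and they were left out of the pericyte list below because they are members. The part of pericytes in their levels was not tested.

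Cox6a2, the heart and muscle form of Cox6a, had 15.4, 13.3, 10.5 and 8.36 CPM in LPS+TSLP lungs, 7.31, 13.4 and 11.2 CPM in LPS lungs and 6.63, 14.8 and 5.24 CPM in Vehicle lungs. For Cox6a2, LPS against Vehicle lungs gave a log2 fold change of 0.25 ± 0.40 (SE) and an adjusted p of 0.670. Cox7a1, the heart and muscle form of Cox7a, had 9.79, 1.21, 1.85 and 0.427 CPM in LPS+TSLP lungs, 0.975, 0.904 and 3.33 CPM in LPS lungs and 1.01, 2.83 and 0.546 CPM in Vehicle lungs. For Cox7a1, LPS against Vehicle lungs gave a log2 fold change of 0.25 ± 1.02 (SE) and an adjusted p of 0.880. Cox8b, also a muscle form, had 5.89, 1.09, 2.13 and 0.793 CPM in LPS+TSLP lungs, 1.28, 0.508 and 1.89 CPM in LPS lungs and 2.02, 3.04 and 0.546 CPM in Vehicle lungs. For Cox8b, LPS against Vehicle lungs gave a log2 fold change of -0.61 ± 0.82 (SE) and an adjusted p of 0.613. LPS+TSLP replicate 1 was the highest library for Cox7a1 and Cox8b, and among the Vehicle libraries replicate 2 was the highest for Cox6a2, Cox7a1 and Cox8b. The same libraries carried the most RNA of 12 cardiac muscle markers, which summed to 787, 56.7, 206 and 77.9 CPM in LPS+TSLP lungs, 71.6, 43.0 and 310 CPM in LPS lungs and 136, 786 and 110.2 CPM in Vehicle lungs. All 12 cardiac markers were detected in at least 1 library, and 1 of the 12 was called lower in LPS than in Vehicle lungs (8.33%, against 10.7% of all tested genes). Markers of fat (8 genes, all detected) summed to 4.47 to 8.89 CPM in LPS+TSLP lungs, 3.28 to 16 CPM in LPS lungs and 26.1 to 199.5 CPM in Vehicle lungs, with Vehicle replicate 2 the highest. Their part in the levels of these 3 isoforms was not tested. The testis isoforms were low. Cox6b2 had 7.29, 12.03, 9.98 and 6.10 CPM in LPS+TSLP lungs, 9.51, 8.53 and 2.67 CPM in LPS lungs and 13.8, 6.57 and 6.06 CPM in Vehicle lungs. For Cox6b2, LPS against Vehicle lungs gave a log2 fold change of -0.35 ± 0.48 (SE) and an adjusted p of 0.620. Cox7b2 had reads in LPS+TSLP replicates 2 and 3 alone, at 0.173 and 0.0545 CPM, and Cox8c had none in any library. Cox7a2l, a Cox7a relative that links complexes III and IV, overlapped between groups, with 169, 118, 106 and 96.4 CPM in LPS+TSLP lungs, 203, 103 and 86.8 CPM in LPS lungs and 144, 109.6 and 104 CPM in Vehicle lungs. For Cox7a2l, LPS against Vehicle lungs gave a log2 fold change of 0.14 ± 0.32 (SE) and an adjusted p of 0.782.

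**Figure D4:**
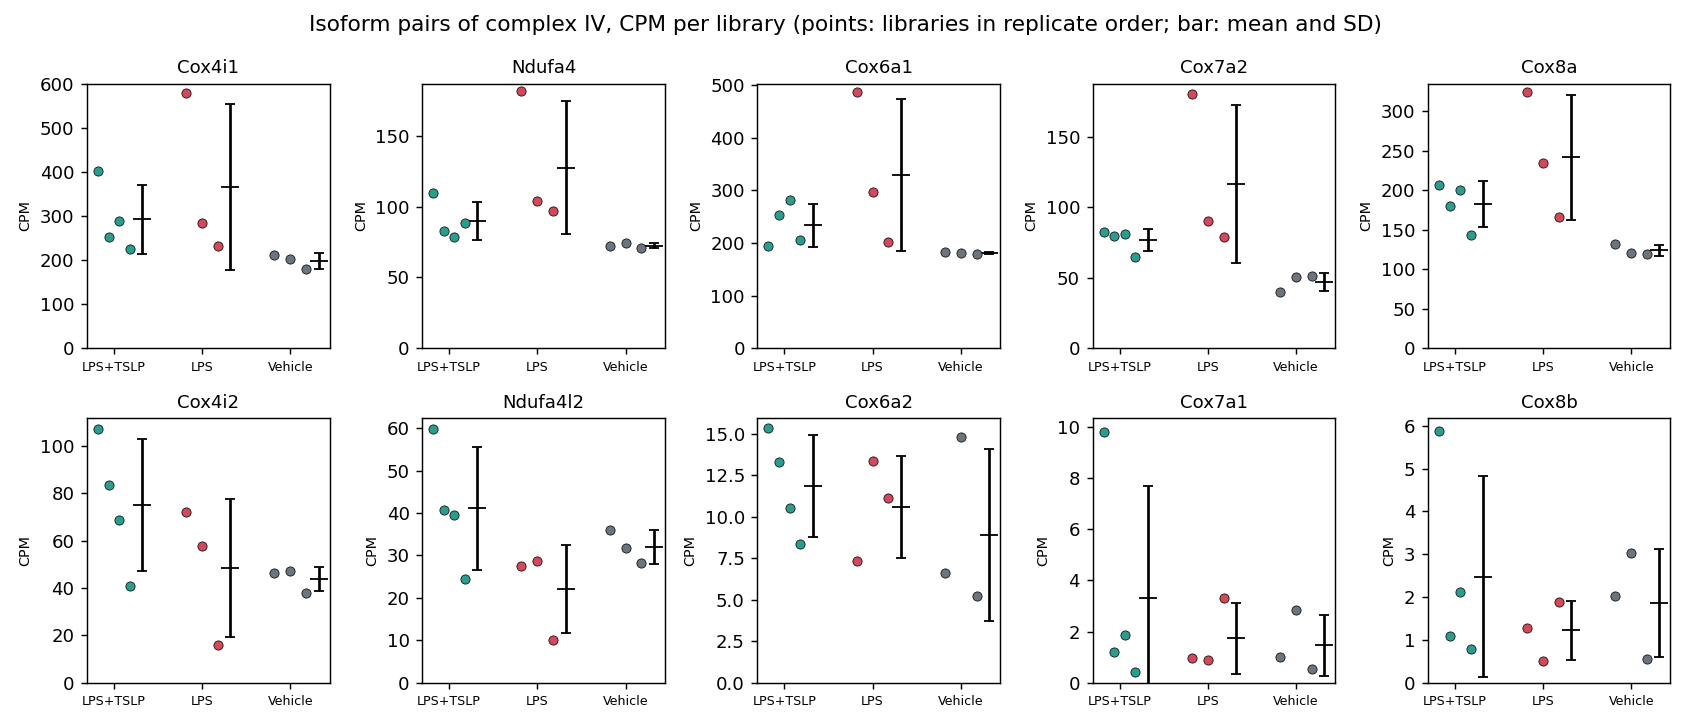
CPM of 5 ubiquitous complex IV subunits (top) and the isoform that can replace each (bottom), with LPS+TSLP, LPS and Vehicle from left to right; points are libraries in replicate order and bars give the mean and SD, which for Cox7a1 in LPS+TSLP lungs runs below the axis. Each LPS point lies above each Vehicle point in the top panels, and the groups overlap in the bottom panels, where LPS+TSLP replicate 1 is the highest library.

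The genes of ATP synthase that were higher after LPS lay mainly outside its catalytic head. The 4 small membrane subunits were all called higher in LPS lungs (median log2 fold change 1.60), as were 3 of the 4 tested subunits of the peripheral stalk (median 0.89) and 1 of the 3 genes for subunit c of the rotor ring (median 0.83), while 1 of 5 genes of the catalytic F1 head was called (median 0.25). Atp5k, subunit e, which helps pair the enzyme into dimers, had 29.6, 24.6, 31.3 and 17.6 CPM in LPS+TSLP lungs, 87.7, 54.4 and 40.1 CPM in LPS lungs and 20.4, 14.8 and 14.96 CPM in Vehicle lungs. It rose with a log2 fold change of 1.86 ± 0.31 (SE) and an adjusted p of 0.00375. Atp5mpl, the 6.8 kDa proteolipid, had 55.3, 40.7, 49.1 and 32.2 CPM in LPS+TSLP lungs, 127, 77.8 and 58.6 CPM in LPS lungs and 26.6, 26.2 and 26.2 CPM in Vehicle lungs. For Atp5mpl, LPS against Vehicle lungs gave a log2 fold change of 1.74 ± 0.29 (SE) and an adjusted p of 0.00365. Atp5l, subunit g, had 120.3, 75.4, 76.2 and 62.2 CPM in LPS+TSLP lungs, 195, 99.7 and 67.9 CPM in LPS lungs and 38.8, 44.6 and 47.6 CPM in Vehicle lungs. For Atp5l, LPS against Vehicle lungs gave a log2 fold change of 1.47 ± 0.36 (SE) and an adjusted p of 0.0152. The first 2 held with any library left out, and Atp5l missed the threshold without Vehicle replicate 1 (adjusted p = 0.0728), Vehicle replicate 2 or LPS replicate 1, and after the GC trend was taken out (adjusted p = 0.469). Atp5e, subunit epsilon and the smallest protein of the head, was the one F1 gene called and, with Atp5b, one of the 2 most abundant genes of the complex per length, at 312 CPM per kb against 288 for Atp5b. It had 122, 129.7, 139 and 78.0 CPM in LPS+TSLP lungs, 322, 190.0 and 97.5 CPM in LPS lungs and 81.1, 76.8 and 75.9 CPM in Vehicle lungs. For Atp5e, LPS against Vehicle lungs gave a log2 fold change of 1.38 ± 0.37 (SE) and an adjusted p of 0.0200. It was not called without LPS replicate 1 (adjusted p = 0.0892) or any 1 of the Vehicle libraries.

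Both genes that form the catalytic hexamer were uncalled. Atp5b, the catalytic beta subunit, had 454, 341, 378 and 559 CPM in LPS+TSLP lungs, 743, 535 and 625 CPM in LPS lungs and 584, 684 and 615 CPM in Vehicle lungs. The LPS range enclosed the Vehicle range. For Atp5b, LPS against Vehicle lungs gave a log2 fold change of 0.01 ± 0.23 (SE) and an adjusted p of 0.970. Atp5a1, the alpha subunit, had 535, 312, 386 and 497 CPM in LPS+TSLP lungs, 552, 432 and 514 CPM in LPS lungs and 580.3, 615 and 532 CPM in Vehicle lungs. Its fold change was the lowest of the complex. For Atp5a1, LPS against Vehicle lungs gave a log2 fold change of -0.21 ± 0.23 (SE) and an adjusted p of 0.544. Atp5j, coupling factor 6 of the peripheral stalk, had 92.8, 125, 109 and 84.1 CPM in LPS+TSLP lungs, 110.4, 141 and 86.9 CPM in LPS lungs and 65.3, 64.3 and 64.1 CPM in Vehicle lungs. For Atp5j, LPS against Vehicle lungs gave a log2 fold change of 0.80 ± 0.22 (SE) and an adjusted p of 0.0214. Its call was lost without any 1 of the Vehicle libraries, LPS replicate 1 or LPS replicate 2, with adjusted p up to 0.0801 without Vehicle replicate 2. Atp5j overlaps Gabpa, which encodes the DNA-binding subunit of GABP, on the other strand, and reads of the pair cannot be told apart if counting ignored strand.

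The share of called genes was highest among the shortest. Among the members, 19 of 24 genes with up to 300 coding bases (79.2%) were called higher in LPS lungs, as were 22 of 39 with more and up to 600 (56.4%), 2 of 11 with more than that and up to 1200 (18.2%) and none of the 9 longer ones. All tested protein-coding genes showed a gradient of the same direction, with 123 of 326 (37.7%), 442 of 1628 (27.2%), 605 of 4263 (14.2%) and 959 of 8446 (11.4%) called higher in the same length classes. Genes share the same 6 libraries here and are not independent replicates, and the length classes were chosen after the values were seen. Removing each library's trend with the length of the principal transcript, an alternative chosen after the data were seen, left 33 genes called higher in LPS lungs, all among the 43, and 1 called lower (Ndufa4l2), and the median log2 fold change was then 0.35. The part of transcript length, and of what moves with it in library preparation, in the size of the increase was not tested.

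**Figure D5:**
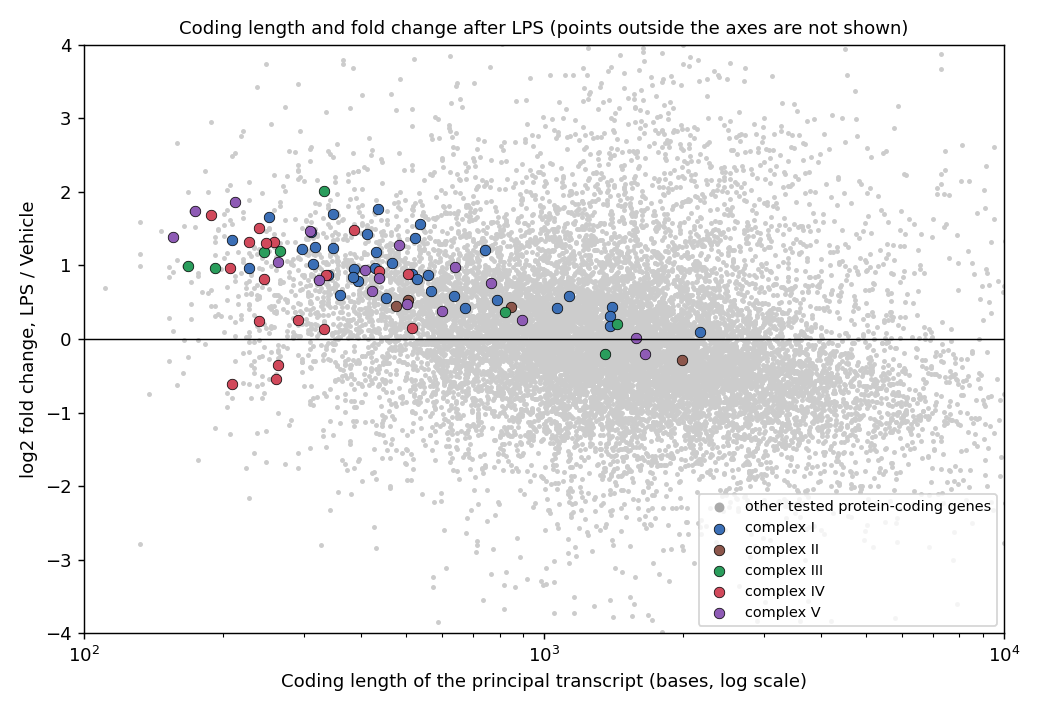
Each point is a tested protein-coding gene; x is the coding length of its principal transcript in bases on a log scale, y the fitted log2 fold change of LPS against Vehicle, with the subunit genes coloured by complex and all others grey. Subunit genes with up to 300 coding bases have a median of 1.19 and those with over 1200 a median of 0.10, and the short complex IV isoforms lie near or below 0.

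Further mitochondrial gene groups were read from the same fit. The 13 mRNAs encoded by mitochondrial DNA, the partners of these subunits in the same complexes, included 4 called higher in LPS lungs and none lower (median log2 fold change 1.14): mt-Nd6 (2.30 ± 0.38 (SE), adjusted p = 0.00365), mt-Nd2 (1.38 ± 0.41 (SE), adjusted p = 0.0328), mt-Nd3 (1.71 ± 0.54 (SE), adjusted p = 0.0398) and mt-Nd5. Summed, they stood at 11780, 24330 and 21640 CPM in LPS replicates 1 to 3, against 10830, 12300 and 11100 CPM in Vehicle replicates 1 to 3. The LPS library with the most nuclear subunit RNA, replicate 1, thus had the least mitochondrially encoded RNA of its group. Of 9 subunits and carriers whose names fall outside the rule, 4 were higher: Usmg5, an ATP synthase membrane subunit (1.52 ± 0.26 (SE), adjusted p = 0.00406), Cycs, the somatic cytochrome c (1.16 ± 0.26 (SE), adjusted p = 0.0106), Etfb, an electron carrier from fatty acid oxidation (1.87 ± 0.46 (SE), adjusted p = 0.0153), and Atpif1, the ATP synthase inhibitor. Cyc1, the cytochrome of complex III, did not pass, at -0.03 ± 0.17 (SE).

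Of 47 tested assembly factors, 8 were higher (17.0%, near the 14.2% of all tested genes) and none lower (median 0.39). The smallest adjusted p values belonged to Ndufaf4, which helps build complex I (1.75 ± 0.23 (SE), adjusted p = 0.00196), Pet100, of complex IV (1.88 ± 0.32 (SE), adjusted p = 0.00409), and Uqcc2, of complex III (1.43 ± 0.29 (SE), adjusted p = 0.00763). The tricarboxylic acid cycle and pyruvate dehydrogenase genes, which feed the chain, had 2 of 22 higher and 2 lower (9.09% each, below the 14.2% and 10.7% of all tested genes), with a median of -0.08. Lower were Pdk2, a kinase of pyruvate dehydrogenase (-1.64 ± 0.25 (SE), adjusted p = 0.00295), and Ogdh (-0.85 ± 0.20 (SE), adjusted p = 0.0129), and higher were Dld (1.19 ± 0.24 (SE), adjusted p = 0.00695) and Acod1, the itaconate-making enzyme of activated macrophages (3.86 ± 1.01 (SE), adjusted p = 0.0192). Among 15 regulators of mitochondrial biogenesis, Ppara fell (-2.32 ± 0.53 (SE), adjusted p = 0.0118), Gabpa rose (1.45 ± 0.35 (SE), adjusted p = 0.0150), and the other 13 were not called, Nrf1, Tfam, Esrra and Yy1 among them. The share called was 6.67% in each direction, below the 14.2% higher and 10.7% lower of all tested genes. Gabpa overlaps the called gene Atp5j on the other strand, and their reads cannot be told apart if counting ignored strand. Import and cristae genes had 4 of 15 higher (median 0.43), with Hspe1 first (1.52 ± 0.37 (SE), adjusted p = 0.0147). Ribosomal proteins, which are short and nuclear-encoded as well, had shares near those of the subunits: 54 of 99 cytosolic (median 0.92) and 31 of 77 mitochondrial (median 0.59) were higher and none lower. Across libraries the cytosolic ribosomal sum was 61250, 38090 and 32100 CPM in LPS replicates 1 to 3, against 24950, 23090 and 22460 CPM in Vehicle replicates 1 to 3, the same order of LPS libraries as for the subunits.

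Markers of other cell types were read beside the subunit genes. Of all tested genes, 14.2% were called higher and 10.7% lower in LPS than in Vehicle lungs. The 10 neutrophil markers summed to 1797, 1553 and 2223 CPM in LPS replicates 1 to 3, against 458, 947 and 1299 CPM in Vehicle replicates 1 to 3, with 1 of the 10 called higher and 3 fold changes below zero. Of 7 pericyte markers 4 were called lower, at sums of 419, 772 and 507 CPM in LPS replicates 1 to 3, against 854, 1084 and 957 CPM in Vehicle replicates 1 to 3. All 10 neutrophil and 7 pericyte markers were detected in at least 1 library. Called lower as well were 3 of 6 markers of lung endothelium, 2 of 6 of smooth muscle, 2 of 5 tested of fat, 2 of 10 of alveolar type 2 cells and 1 of 10 of alveolar macrophages. Called higher were 1 endothelial, 1 alveolar type 2, 1 alveolar macrophage and 1 ciliated marker, and no skeletal muscle marker or haemoglobin gene was called in either direction. LPS replicate 1, the highest in subunit RNA, was not the highest LPS library in the neutrophil sum. It was the highest in haemoglobin genes (5263, 1753 and 1569 CPM in LPS replicates 1 to 3) and in ciliated markers (233, 85.0 and 204 CPM). It was also the highest in skeletal muscle markers (7.37, 3.56 and 5.83 CPM) and smooth muscle markers (596, 585 and 524 CPM). In the remaining marker sums it was not the highest. The part of cell composition in the subunit genes was not tested.

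Between LPS+TSLP and LPS lungs, fold changes of the subunit genes leaned to lower levels in LPS+TSLP lungs, and no gene passed the test. By edgeR none of the 84 was called, as none of the 17139 genes was (0%), and the DESeq2 Wald test and limma-voom called none of the 84 either. At an unadjusted p under 0.05, 15 genes were lower and 1 was higher in LPS+TSLP lungs, where 3.69% of all tested genes were lower and 4.41% higher. The median log2 fold change was -0.35, against 0.02 over all tested genes, with 76 genes below zero and 8 above. The lean was smallest without LPS replicate 1, where the median was -0.07, with 53 genes below zero and 31 above. When replicate 1 of both LPS+TSLP and LPS was left out, the median was -0.17, with 69 genes below zero and 15 above. Without LPS+TSLP replicate 4 the median was -0.22, and without LPS replicate 3 it was -0.58. Summed over the 90 genes, the level was 8593, 6927, 7388 and 6142 CPM in LPS+TSLP replicates 1 to 4, against 12810, 8413 and 6971 CPM in LPS replicates 1 to 3, so the groups overlapped.

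Only Atp5k, Atp5mpl, Cox7b and Atp5c1 had each LPS+TSLP library below each LPS library, 4 of 84 where 3.54% of all tested genes did so. No member had each LPS+TSLP library above each LPS library, as 3.88% of all tested genes had. Atp5k had the smallest unadjusted p of the 84, with a log2 fold change of -1.24 ± 0.28 (SE) and an adjusted p of 0.589. In LPS+TSLP lungs it stood at 29.6, 24.6, 31.3 and 17.6 CPM, against 87.7, 54.4 and 40.1 CPM in LPS lungs. Uqcrb had a fold change of -1.10 ± 0.29 (SE), Atp5mpl of -0.98 ± 0.26 (SE), Ndufb9 of -0.96 ± 0.29 (SE), Cox5b of -0.90 ± 0.28 (SE) and Cox7b of -0.69 ± 0.22 (SE), each with an adjusted p of 0.589. Atp5c1, the rotor shaft gamma subunit, had 113, 120.0, 128 and 116 CPM in LPS+TSLP lungs, 136, 143 and 130.1 CPM in LPS lungs and 113, 119 and 111 CPM in Vehicle lungs, a narrow range in each group. For Atp5c1, LPS+TSLP against LPS lungs gave a log2 fold change of -0.19 ± 0.14 (SE) and an adjusted p of 0.769. The genes above zero were Ndufs7, Atp5s and the 6 tested complex IV isoforms, whose median was 0.76. Also above zero were 11 of 12 cardiac muscle markers (median 0.94), 6 of 7 pericyte markers (0.60) and 6 of 6 smooth muscle markers (0.66). None of these markers was called. Neutrophil markers summed to 557, 999, 1117 and 787 CPM in LPS+TSLP replicates 1 to 4, against 1797, 1553 and 2223 CPM in LPS replicates 1 to 3. The part of cell composition in this comparison was not tested. Mitochondrially encoded mRNAs ran the other way from most nuclear subunits: all 13 had fold changes above zero (median 1.70), none was called, and they summed to 132900, 61150, 50170 and 19280 CPM in LPS+TSLP replicates 1 to 4, against 11780, 24330 and 21640 CPM in LPS replicates 1 to 3, so LPS+TSLP replicate 4 lay within the LPS range.

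Against Vehicle lungs, LPS+TSLP lungs had 5 subunit genes called higher, Cox6c, Cox7b, Cox7c, Uqcrq and Atp5j, and none lower, which is 5.95% of the 84 where 8.82% of all tested genes were called higher and 5.35% lower. Whether the share of subunit genes lay above or below that of all genes depended on the setting: it was above in 10 of 24 alternatives and below in 14. It was 22.6% against 13.4% of all genes with the DESeq2 Wald test, 21.4% against 8.04% with these groups compared alone, 21.4% against 6.17% with the GC trend taken out and 32.1% against 10.9% with the replicate block. These 5 were also called in LPS lungs, a comparison that uses the same Vehicle libraries. The median log2 fold change was 0.55, against 0.03 over all tested genes, with 77 genes above zero and 7 below. At an unadjusted p under 0.05, 35 were higher and 2 lower, against 18% and 14.9% of all tested genes, and neither DESeq2 nor limma-voom called any lower. Each LPS+TSLP library lay above each Vehicle library for 42 of the 84 genes, where 15.7% of all tested genes did so. Each lay below for 2 of the 84, Sdha and Atp5b, where 15.9% of all tested genes did so.

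Cox6c had 171, 148, 143 and 93.8 CPM in LPS+TSLP lungs, against 72.1, 72.2 and 67.0 CPM in Vehicle lungs. For Cox6c, LPS+TSLP against Vehicle lungs gave a log2 fold change of 0.98 ± 0.26 (SE) and an adjusted p of 0.0303. Cox7b had 60.6, 68.8, 72.2 and 42.6 CPM in LPS+TSLP lungs, against 33.8, 34.7 and 35.2 CPM in Vehicle lungs. For Cox7b, LPS+TSLP against Vehicle lungs gave a log2 fold change of 0.82 ± 0.22 (SE) and an adjusted p of 0.0344. Cox7c had 147, 90.2, 98.7 and 64.9 CPM in LPS+TSLP lungs, against 59.7, 43.1 and 49.2 CPM in Vehicle lungs. For Cox7c, LPS+TSLP against Vehicle lungs gave a log2 fold change of 0.98 ± 0.29 (SE) and an adjusted p of 0.0466. In each of these 3 complex IV genes LPS+TSLP replicate 4 was the lowest of its group and still above each Vehicle library. Uqcrq had 165, 126, 151 and 83.2 CPM in LPS+TSLP lungs, against 54.9, 75.1 and 67.9 CPM in Vehicle lungs. For Uqcrq, LPS+TSLP against Vehicle lungs gave a log2 fold change of 0.99 ± 0.28 (SE) and an adjusted p of 0.0389. Atp5j had 92.8, 125, 109 and 84.1 CPM in LPS+TSLP lungs, against 65.3, 64.3 and 64.1 CPM in Vehicle lungs. For Atp5j, LPS+TSLP against Vehicle lungs gave a log2 fold change of 0.67 ± 0.20 (SE) and an adjusted p of 0.0496. None of the 5 was called without Vehicle replicate 1, 2 or 3 or without LPS+TSLP replicate 2 or 3, where no member was called, and 21 members were called without LPS+TSLP replicate 4, 19 without LPS replicate 1, 10 without LPS replicate 3, 3 without LPS+TSLP replicate 1 and 2 without LPS replicate 2. With the replicate number as a block 27 were higher and 1, Atp5b, was lower, although it is not known whether the numbers pair the libraries. The DESeq2 Wald test called 19, and the DESeq2 and edgeR calls shared all 5.

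The 2 genes lowest against Vehicle were the catalytic subunits already described. Sdha had 189, 123, 145 and 193 CPM in LPS+TSLP lungs, against 247, 249 and 202 CPM in Vehicle lungs. For Sdha, LPS+TSLP against Vehicle lungs gave a log2 fold change of -0.52 ± 0.20 (SE) and an adjusted p of 0.0995. Atp5b had 454, 341, 378 and 559 CPM in LPS+TSLP lungs, against 584, 684 and 615 CPM in Vehicle lungs. For Atp5b, LPS+TSLP against Vehicle lungs gave a log2 fold change of -0.54 ± 0.22 (SE) and an adjusted p of 0.113. Both missed the threshold, although each LPS+TSLP library lay below each Vehicle library. The medians by library were 0.78, 0.55, 0.60 and 0.13 above the Vehicle mean in LPS+TSLP replicates 1 to 4 on the log2 scale, and LPS+TSLP replicate 4 was the lowest of its group for 62 of the 84 genes. In that library 46 genes lay above all Vehicle libraries, compared with 67 to 69 in the other LPS+TSLP libraries. Over the same comparison all 13 mitochondrially encoded mRNAs were called higher (median log2 fold change 3.01), with mt-Nd6 at 3.12 ± 0.38 (SE) and an adjusted p of 0.00213. Called higher were also 3 of 47 assembly factors (6.38%), 4 of 99 cytosolic (4.04%) and 3 of 77 mitochondrial ribosomal proteins (3.90%), and none was lower. These 3 shares lie below the 8.82% of all tested genes called higher.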

How the data were processed

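RNA sequencing of mouse lung tissue gave 10 libraries. The deposited values are raw counts of reads per gene; per the submitters' processing notes, CASAVA, HISAT2 and HTSeq 0.6.0 were used with GRCm38/mm10, and the annotation release and strand setting are not given in the sources used here. The members and lists were chosen with earlier results of these data known. Genes passing edgeR's filterByExpr (17139) were fitted with edgeR 4.0.16 in R 4.3.3 (TMM, robust quasi-likelihood, all 3 groups in 1 fit, 7 residual degrees of freedom), with two-sided p-values adjusted by Benjamini-Hochberg over all 17139 genes and calls at 0.05. CPM uses TMM-scaled totals of the tested genes. Named genes were those called, the highest and lowest fold change and the 2 most abundant genes per length of each complex, the isoforms and all complex II genes. Some other members, Uqcrfs1 and Atp5c1 among them, were named outside this rule. Lengths, shared 50-base stretches and overlaps came from GENCODE M21, which holds 90 of the 90 members. Whether replicate numbers pair the libraries is not known. Correlations of deviations between libraries of the same number ran between -0.344 and 0.405, over 0.1 in 3 of 9 pairs. LPS and LPS+TSLP replicates 1 and 2 gave 0.325 and 0.405. Libraries of different numbers were not correlated, so these values cannot decide it. Alternatives were other scalings and filters, DESeq2 1.42.0, limma-voom 3.58.1, a replicate block, groups alone, GC and length trends removed, and libraries left out. No 2 libraries agreed within sampling noise (chi-square per degree of freedom 33.0 or more). The fits were tested on simulated data.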

Additional observations from a re-analysis of the deposited data

Results flagged for a closer look

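Among the 4 LPS+TSLP libraries, 5 of the 84 genes had 1 library far from the other 3, where chance gives such a gap in about 1 of 20 groups. Ndufa11, a membrane-arm subunit of complex I, had 36.6 CPM in LPS+TSLP replicate 4, against 59.5 to 61.6 CPM in the others. Ndufa8, another membrane-arm subunit, had 49.4 CPM in LPS+TSLP replicate 4, against 68.7 to 70.4 CPM in the others. LPS+TSLP replicate 1 stood above the others for Cox7a1, the muscle isoform, at 9.79 CPM against 0.427 to 1.85 CPM, for Atp5g2 at 146 CPM against 79.8 to 89.9 CPM, and for Atp5g3 at 267 CPM against 136 to 155 CPM. Atp5g2 and Atp5g3 encode subunit c of ATP synthase.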

How the results depend on the processing

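No member's called log2 fold change, and no median over the members, changed sign under the alternatives run. In LPS+TSLP against Vehicle lungs, however, the share of subunit genes called higher lay above that of all genes in 10 of 24 alternatives and below it in the other 14, as in the values given in the report. Subunit genes called higher in LPS against Vehicle lungs numbered 33 to 53 under the alternatives that kept all libraries, 32 when replicate 1 of both LPS+TSLP and LPS was left out, and 11 to 54 with 1 library left out. Their median log2 fold change was 0.35 with the principal transcript length trend removed, where 1 gene was lower, and 0.58 to 1.15 with 1 library left out. In LPS+TSLP against Vehicle lungs the count of 5 higher became 3 with upper quartile factors, 19 with the DESeq2 Wald test, 18 with the groups compared alone, 18 with the GC trend removed, 12 with the principal transcript length trend removed, 19 when replicate 1 of both was left out, and 0 to 21 with 1 library left out. With the replicate block it was 27 higher and 1 lower, and in LPS against Vehicle lungs 43 were higher, 40 of them shared. The causes were not tested. Groups of 3 and 4 libraries limit the precision, and so do the low counts of Cox7a1 and Cox8b.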
